A study of Mus musculus with 6 samples.

Results

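The B cell and plasma cell genes examined here were Igkc, Ighm, Jchain, Mzb1, Cd79a, Cd79b, Ms4a1, Pou2af1 and Fcmr, 9 of the 23557 genes measured in CT26 tumors. They were chosen by name after Igkc had been seen to be higher in tumors of H89-treated mice, so their values in NaCl and H89 tumors are a description and carry no test. CT26 is a mouse colorectal carcinoma line of the BALB/c strain, and H89 is a kinase inhibitor best known for blocking protein kinase A. All mice were BALB/c females of 7 weeks that received 500000 CT26 cells under the skin and were injected intraperitoneally 2 times a week from day 6. The 3 control mice received NaCl and the 3 H89-treated mice received H89 at 10 mg/kg in NaCl, and each tumor was removed on day 14, frozen and sequenced as total RNA. Each library is a whole tumor in which cancer cells, stroma and leukocytes were not separated. Fewer cells of a type and less RNA per cell cannot be told apart in such samples.

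The total estimated count lay between 27067349 and 31958793 per tumor, so that 1 count was worth 0.0313 to 0.0369 CPM. CPM is the estimated count per 1000000 counts of the tumor, not scaled for gene length unless stated. H89 tumor 3 stood apart from the other libraries in several leukocyte and red blood cell genes, for example with 83.7 CPM of Ptprc against 24.1 to 48.6 CPM elsewhere. Replicates of a group differed by far more than counting noise, with a chi-square of 25.3 to 101 per degree of freedom between pairs of tumors over the tested genes, and all 6 were kept as separate samples.

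B cells carry an antibody on their surface as the B cell receptor, in which immunoglobulin chains pair with the signaling proteins CD79A and CD79B. Once activated, a B cell can become a plasma cell, which loses most surface markers, fills with rough endoplasmic reticulum and makes immunoglobulin mRNA in very large amounts. A few plasma cells can therefore weigh heavily on the immunoglobulin reads of a bulk library. Each B cell clone rearranges its own choice of variable (V) segment for each chain, which its progeny inherit.

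The antibody genes held most of the reads of the set. Igkc encodes the constant region of the kappa light chain (chromosome 6 from 70726435 to 70726966, plus strand, GRCm38). Its estimated count was 41, 27 and 13 in NaCl tumors 1, 2 and 3 and 94, 295 and 529 in H89 tumors 1, 2 and 3. Every H89 tumor lay above every NaCl tumor, and the H89 tumors also differed widely among themselves. The mean CPM of Igkc in NaCl tumors was 0.958 ± 0.473 (SD, n = 3), that in H89 tumors was 9.87 ± 6.93 (SD, n = 3), and the fitted log2 ratio of H89 over NaCl was 3.26 (standard error 0.61). Without H89 tumor 3 it was 2.64.

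Ighm encodes the constant region of the mu heavy chain of IgM (chromosome 12 from 113418558 to 113422730, minus strand). Its estimated count was 151, 496 and 355 in the NaCl tumors and 1018, 1030 and 1185 in the H89 tumors, again without overlap. Unlike Igkc, Ighm was even across the H89 tumors, at 35.4 ± 3.05 CPM (SD, n = 3), and uneven across the NaCl tumors, at 12.1 ± 6.59 CPM (SD, n = 3). The log2 fold change was 1.49 (standard error 0.36), and leaving out any single tumor kept it between 1.13 and 1.91.

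Jchain encodes the joining chain that links IgM pentamers and IgA dimers and is made by antibody-secreting cells (chromosome 5 from 88519809 to 88527891, minus strand). Its estimated count was 9, 11 and 5 in the NaCl tumors and 17, 69 and 126 in the H89 tumors. The order of the H89 tumors was that of Igkc, with tumor 1 lowest and tumor 3 highest, and the groups did not overlap. The log2 fold change was 2.83 (standard error 0.67) with all tumors and 2.14 without H89 tumor 3. Mzb1 encodes an endoplasmic reticulum chaperone of marginal zone B cells and plasma cells that helps antibody assembly (chromosome 18 from 35647267 to 35649367, minus strand). Its estimated count was 1, 5 and 1 in the NaCl tumors and 15, 17 and 9 in the H89 tumors, so the groups did not overlap, but here H89 tumor 3 was the lowest of the H89 tumors. The 7 counts of the NaCl group gave a pooled 0.0833 CPM (exact Poisson 95% interval 0.0335 to 0.172) and the 41 counts of the H89 group gave 0.448 CPM (0.322 to 0.608), intervals that cover counting error only. The log2 fold change of Mzb1 was 2.29 (standard error 0.66), and it was 3.44 without NaCl tumor 2, which held 5 of the 7 counts of its group. The exons of Mzb1 overlap those of the readthrough gene model SPATA24 on the same strand, and the reads of the 2 models cannot be told apart there.

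The partner chains of the B cell receptor showed smaller differences. Cd79a (chromosome 7 from 24897381 to 24902197, plus strand) had estimated counts of 18, 15 and 10 in the NaCl tumors and 22, 42 and 30 in the H89 tumors. The groups were separate but close, with 0.511 ± 0.136 CPM in NaCl and 1.02 ± 0.275 CPM in H89 tumors (SD, n = 3 each) and a log2 fold change of 0.92 (standard error 0.34). Cd79b (chromosome 11 from 106311341 to 106314762, minus strand) had estimated counts of 6, 25 and 34 in the NaCl tumors and 31, 33 and 39 in the H89 tumors. Its groups overlapped, and the log2 fold change of 0.46 (standard error 0.51) rested on NaCl tumor 1, without which it was 0.01.

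The remaining members were near the limit of detection. Ms4a1 encodes CD20, a surface protein of mature B cells that plasma cells lack (chromosome 19 from 11249675 to 11266241, minus strand), and had estimated counts of 1, 2 and 4 in the NaCl and 1, 17 and 5 in the H89 tumors. With all tumors the log2 fold change stood at 1.43 (standard error 0.91), and at 0.16 without H89 tumor 2, which held 17 of the 23 counts of its group. Pou2af1 encodes the coactivator OBF-1, which joins the octamer-binding factors OCT1 and OCT2 at immunoglobulin promoters (chromosome 9 from 51213708 to 51240080, plus strand). Its estimated counts were 4, 2 and 3 in the NaCl and 3, 16 and 8 in the H89 tumors, with a log2 fold change of 1.32 (standard error 0.67) that was 0.66 without H89 tumor 2. Fcmr encodes a receptor for the Fc part of IgM (chromosome 1 from 130865669 to 130880791, plus strand) and had counts of 7, 2 and 2 in the NaCl and 3, 6 and 5 in the H89 tumors. The groups of these 3 genes overlapped, and for Fcmr the direction itself changed when single tumors were left out, between -0.15 and 0.95.

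**Figure D1:**
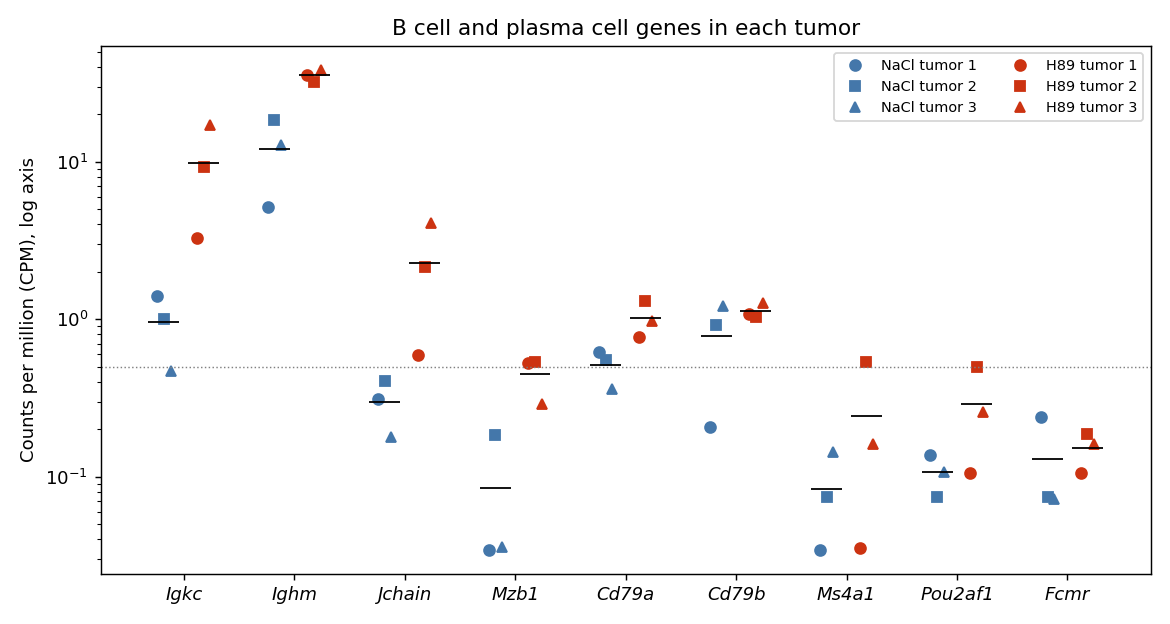
CPM of the 9 genes on a log axis, with 1 point for each of the 3 NaCl (blue) and 3 H89 (red) tumors, a black line at each group mean and a dotted line at 0.5 CPM. Igkc, Ighm, Jchain, Mzb1 and Cd79a show no overlap between the groups, whereas Cd79b, Ms4a1, Pou2af1 and Fcmr do.

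Of the 9 genes, 5 had all H89 values above all NaCl values and 0 had them all below. Among all 18837 detected genes, 17.1% had all 3 H89 CPM above all 3 NaCl CPM and 7.65% had them all below. With the libraries scaled by edgeR's TMM method instead of their totals, the count of members was again 5 and the share of all detected genes 13.1%. Since the set was proposed with this contrast in view, nothing is read from the difference between those shares. The median log2 fold change over all 9 members was 1.43, where the median over all detected genes was 0.04, and it was 0.68 without H89 tumor 2. A mean of at least 0.5 CPM over the 6 tumors was reached by 5 members, of which Jchain passed only through the H89 tumors, while Mzb1, Ms4a1, Pou2af1 and Fcmr did not reach it and their fold changes come from a fit of all detected genes.

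The members differed in which H89 tumor was highest. Igkc, Ighm, Jchain and Cd79b were highest in H89 tumor 3, Cd79a, Mzb1, Ms4a1 and Pou2af1 in H89 tumor 2, and Fcmr in NaCl tumor 1. The span from the lowest to the highest tumor was 36.7-fold for Igkc and 22.7-fold for Jchain, against 3.66-fold for Cd79a. Per length, using the summed exons of each gene, the CPM per kilobase of Igkc was 2.65, 1.88 and 0.876 in the NaCl tumors and 6.19, 17.4 and 32.1 in the H89 tumors. That of Ighm was 2.75, 9.72 and 6.75 in the NaCl and 18.9, 17.1 and 20.3 in the H89 tumors. On this scale the group mean of the H89 tumors was 18.6 for Igkc and 18.8 for Ighm, a difference well within the spread of Igkc, and then 0.904 for Jchain, 0.787 for Cd79b, 0.699 for Cd79a, 0.37 for Mzb1, 0.113 for Pou2af1, 0.0873 for Fcmr and 0.0393 for Ms4a1. In the NaCl tumors the order of the means began with Ighm at 6.41 and Igkc at 1.80, followed by Cd79b at 0.547, Cd79a at 0.351 and Jchain at 0.119.

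The balance between Igkc and Cd79a differed between the tumors. The ratio of Igkc to Cd79a per kilobase was 6.24, 4.93 and 3.56 in the NaCl tumors and 11.7, 19.2 and 48.3 in the H89 tumors. The ratio was higher in each H89 tumor than in any NaCl tumor. Since the set was proposed after Igkc had been seen to rise, this separation is no support for a shift. It covers Igkc only and is not a statement about the antibody genes in general. The ratio of Ighm to Igkc per kilobase was 1.04, 5.18 and 7.70 in the NaCl tumors and 3.05, 0.985 and 0.632 in the H89 tumors. These ranges overlap, since NaCl tumor 1 was like H89 tumor 2.

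**Figure D2:**
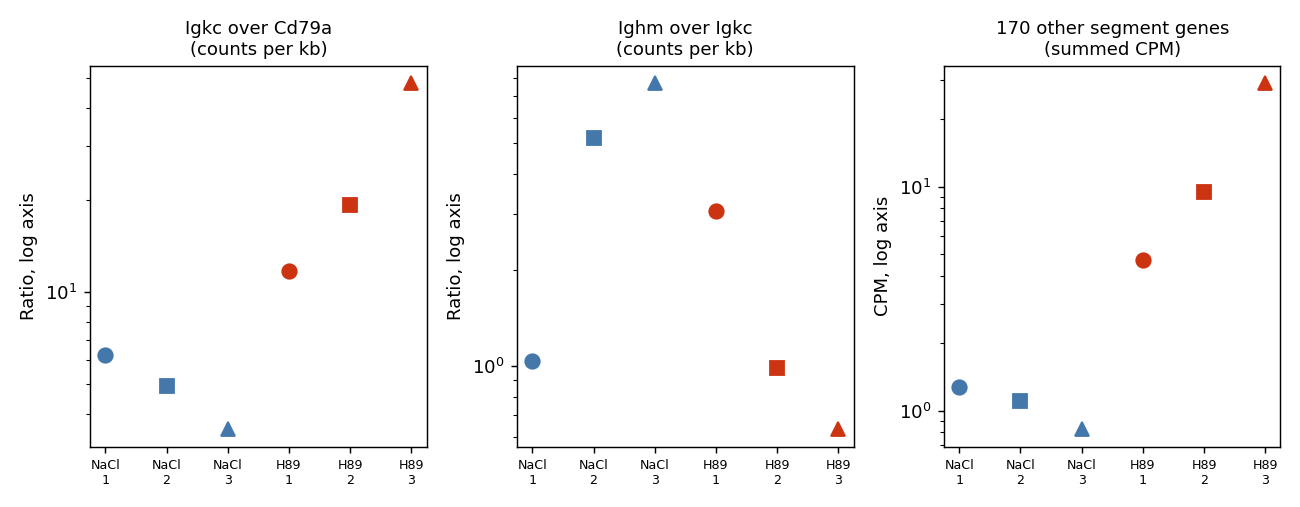
Ratio of Igkc to Cd79a and of Ighm to Igkc (counts per kilobase of exon, log axes) and the summed CPM of the 170 other immunoglobulin segment genes (log axis), 1 point per tumor. The Igkc to Cd79a ratio and the summed segment CPM are higher in each H89 tumor than in any NaCl tumor, and both are highest in H89 tumor 3.

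Shares of the heavy chain constant counts were taken over Ighm, Ighg2c, Igha, Ighg3, Ighg2b and Ighe. Ighg1, Ighg2a and Ighd were not among the 23557 genes read here and are not in these totals, so the shares do not cover all antibody classes. Ighm held 87.8%, 97.8% and 97.5% of the heavy chain constant counts in NaCl tumors 1, 2 and 3, out of 172, 507 and 364 counts. It held 93.0% of 1095 counts in H89 tumor 1 and 91.9% of 1121 counts in H89 tumor 2, but 65.2% of 1818 counts in H89 tumor 3 (exact binomial 95% interval 62.9% to 67.4%). In that tumor Ighg2c, an IgG constant gene, held 27.7% (25.6% to 29.8%), where its share in the other 5 tumors was at most 1.16%. The Ighg2c count was 2, 0 and 1 in the NaCl tumors and 5, 12 and 503 in the H89 tumors, so that 1 tumor held nearly all of it. BALB/c mice carry Ighg2a in the place where the reference strain has Ighg2c, so this gene stands here for whichever IgG2a-like reads matched the reference. Its pooled ratio of H89 over NaCl, from 520 against 3 counts, was 159 (exact interval 54.2 to 775, counting error only), and in edgeR's test it did not pass (Benjamini-Hochberg adjusted p = 0.106). Its log2 fold change was 7.02 with all tumors and 2.77 without H89 tumor 3.

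Ighg3, the constant gene of IgG3, was at 0 in the 3 NaCl tumors and had counts of 3, 25 and 66 in the H89 tumors, a pooled level at least 28.8-fold higher when 3 counts are allowed over the NaCl group (edgeR Benjamini-Hochberg adjusted p = 0.0929). Without H89 tumor 3, which held 66 of the 94 counts, this bound was 13.0-fold. Of the 170 other immunoglobulin segment genes 5 were tested, and Igha, the constant gene of IgA, was the only one to pass. Its count was 13, 8 and 6 in the NaCl tumors and 66, 54 and 35 in the H89 tumors, and it rose by 2.34 on the log2 scale (standard error 0.42; adjusted p = 0.0452 by edgeR with Benjamini-Hochberg correction). Unlike Ighg2c it was lowest in H89 tumor 3 among the H89 tumors, but leaving out any single tumor raised its adjusted p to between 0.0706 and 0.146. Of all 13118 genes tested, 0.861% were higher and 0.724% lower at this threshold. Iglc2, the lambda light chain constant gene, had counts of 4, 9 and 5 in the NaCl and 23, 52 and 30 in the H89 tumors, with a log2 fold change of 2.31 (standard error 0.44) just short of the threshold (adjusted p = 0.0504). Its transcript is 95.4% identical to that of Iglc3, so reads of the lambda constant genes may be shared. The 5 tested segments, also the 5 most abundant beside the members, were Ighg2c, Ighg3, Igha, Iglc2 and Igkv16-104. All of them passed the filter on low values only through the H89 tumors, so their tests are no support for a rise.

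In total the 170 segment genes other than the members had 37, 30 and 23 counts in the NaCl tumors and 134, 302 and 897 in the H89 tumors. Reads on V segments were mostly those of the kappa chain. The heavy chain V segments, of which 55 were measured, had 0 counts in each NaCl tumor and 2, 16 and 7 in the H89 tumors. The Ighm counts were 151, 496 and 355 in the NaCl and 1018, 1030 and 1185 in the H89 tumors. Whether the Ighm reads came from rearranged antibody mRNA was not tested. Segments were counted against the reference strain, not BALB/c, and whether BALB/c V reads were missed was not tested. The kappa V segments, of which 97 were measured, had 12, 10 and 7 counts in the NaCl tumors and 29, 125 and 202 in the H89 tumors. In H89 tumor 2 these 125 counts were spread over 41 segments, and the most counted one, Igkv4-91, held 16 of them, or 12.8% (exact binomial 95% interval 7.50% to 20.0%). In H89 tumor 3 the 202 counts fell on 16 segments and Igkv16-104 alone held 165, or 81.7% (75.6% to 86.8%). The same segment had 3 and 1 counts in H89 tumors 1 and 2 and 0 in the NaCl tumors. Without the leading segment of each tumor, the kappa V counts were 7, 8 and 5 in NaCl and 24, 109 and 37 in H89 tumors, with each H89 tumor again above each NaCl tumor and H89 tumor 3 below H89 tumor 2. With so few counts, the NaCl tumors give no reading of how many segments were used, since 0 counts of a segment in 1 of them allow up to 0.103 to 0.111 CPM.

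**Figure D3:**
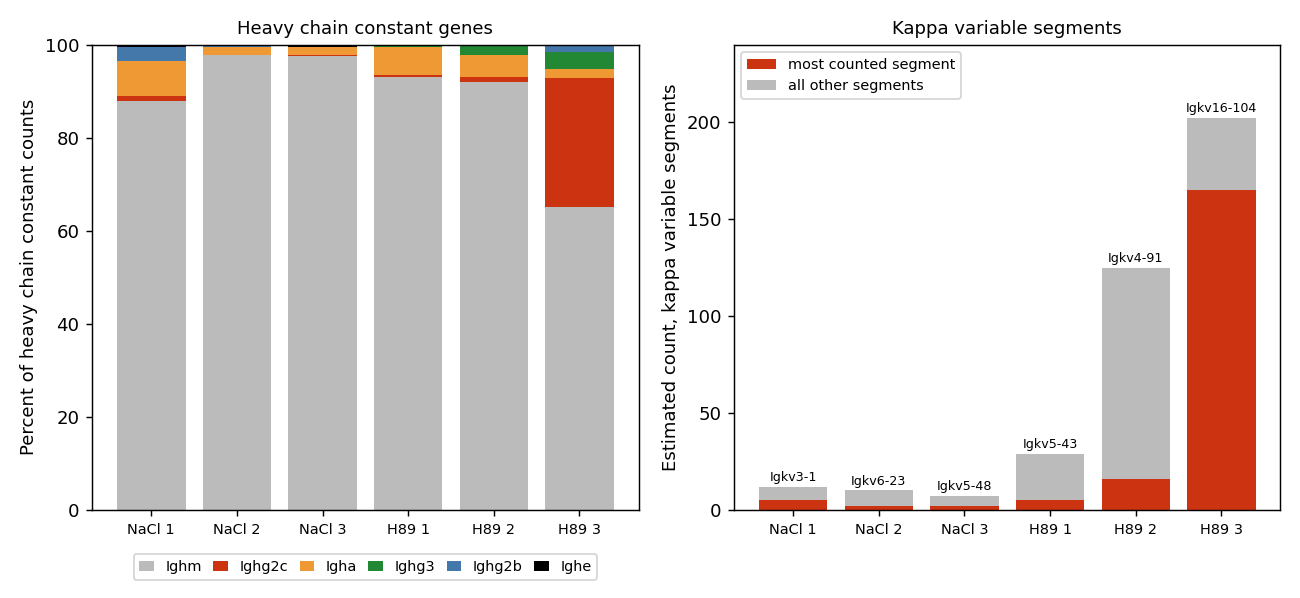
Left, percent of heavy chain constant counts held by each constant gene in each tumor, over Ighm, Ighg2c, Igha, Ighg3, Ighg2b and Ighe only. Right, estimated count on kappa V segments in each tumor, with the most counted segment in red and named. Ighg2c and Igkv16-104 stand out in H89 tumor 3, at 27.7% of heavy chain constant and 165 of 202 kappa V counts.

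The V exon of Igkv16-104 (chr6:68425774-68426072, plus strand, GRCm38) is shown because this 1 segment carried most kappa V reads of H89 tumor 3. It comes from the GENCODE M21 reference transcript, not from the tumor reads, and the 76 capitals among its 299 bases mark positions that differ from Igkv11-125, the annotated segment most like it.
Igkv16-104 V exon: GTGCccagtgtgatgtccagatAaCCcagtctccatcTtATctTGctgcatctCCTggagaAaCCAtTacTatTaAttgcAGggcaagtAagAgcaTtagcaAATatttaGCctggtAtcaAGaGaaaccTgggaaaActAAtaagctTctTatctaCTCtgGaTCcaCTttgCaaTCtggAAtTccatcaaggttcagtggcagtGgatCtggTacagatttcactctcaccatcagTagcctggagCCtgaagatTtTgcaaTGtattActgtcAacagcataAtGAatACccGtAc

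Over the 349 aligned bases of their transcripts the 2 segments were 73.9% identical. By comparison Igkv4-91, the leading segment of H89 tumor 2, was 87.2% identical to Igkv4-79, and Ighg2c was 87.8% identical to Ighg2b. Of these 3, Igkv16-104 was the one least like its nearest annotated neighbour.

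The members were also set against Ptprc, which encodes CD45, a surface phosphatase of all nucleated blood cells. Ptprc was 24.1, 31.2 and 29.3 CPM in the NaCl tumors and 47.3, 48.6 and 83.7 CPM in the H89 tumors, a log2 difference of 1.01 (standard error 0.21) that missed the threshold in edgeR's test (Benjamini-Hochberg adjusted p = 0.0547). Per Ptprc, on the scale of log2(CPM + 0.5), Igkc was 1.60 higher in H89 than in NaCl tumors, with a group mean of -2.75 ± 0.79 against -4.35 ± 0.63 (SD, n = 3 each), and the groups did not overlap. Ighm was 0.64 and Jchain 0.55 higher per Ptprc, both with overlapping groups. On this scale the other 6 members were lower per Ptprc in H89 tumors. The differences were -0.33 for Mzb1, -0.45 for Cd79a, -0.59 for Cd79b, -0.68 for Pou2af1, -0.73 for Ms4a1 and -0.97 for Fcmr. Of these only Fcmr had groups that did not overlap. For genes under 0.5 CPM the added 0.5 pulls this measure towards the inverse of Ptprc. Without it, the ratio of mean CPM of H89 over NaCl was 2.12 for Ptprc. That ratio was larger for Mzb1 (5.29), Ms4a1 (2.89) and Pou2af1 (2.71), so for these genes the direction per Ptprc depends on the measure. It was smaller for Cd79a (1.99), Cd79b (1.44) and Fcmr (1.18). The median of the 9 differences was -0.45 and ranged from -0.60 to -0.17 with pseudocounts of 1 and 0.1. Without H89 tumor 2 it was -0.68, without H89 tumor 3 -0.17 and without NaCl tumor 1 -0.28.

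**Figure D4:**
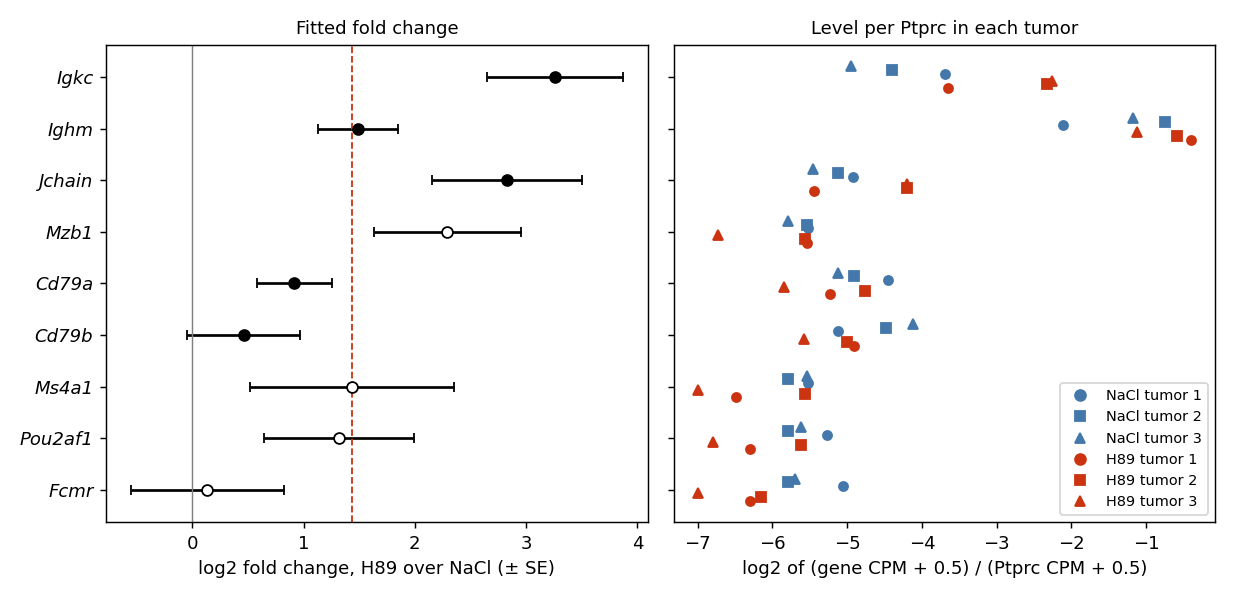
Left, log2 fold change of H89 over NaCl with its standard error, filled for genes above the filter and open for those fitted with all detected genes, with a dashed line at the median of 1.43. Right, log2 level per Ptprc in each tumor, where the H89 tumors lie above the NaCl tumors for Igkc only.

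The genes that surround these members in B cells and plasma cells were examined as lists, and 0 of the 87 tested genes of the 6 B cell, plasma cell and antibody lists passed the adjusted threshold in edgeR's test, while 26 had an unadjusted p under 0.05 (19 higher, 7 lower) and DESeq2 called 12 (10 higher, 2 lower). The counts that follow are therefore at an unadjusted p under 0.05, which 13.1% of all tested genes reached higher and 11.9% lower in H89 tumors. Of 22 B lineage genes measured, 14 were tested, 5 were higher and 0 lower, with a median log2 fold change of 0.61 against 0.004 for all tested genes. The smallest p values belonged to Bcl11a, a transcription factor of B cells and plasmacytoid dendritic cells (log2 fold change 1.23, standard error 0.29, adjusted p = 0.0721), Cd72, a coreceptor of B cells and some macrophages (0.89, 0.24, adjusted p = 0.0861), and H2-Ob, a chain of the B cell protein H2-O (1.77, 0.50, adjusted p = 0.0941). Bcl11a and H2-Ob, with NaCl means of 0.395 and 0.229 CPM, passed the filter on low values only through the H89 tumors, so their place among the genes that were higher is no support. Of the other 12 tested B lineage genes 3 were higher, with a median of 0.51. Pax5, the B cell master regulator, was near the limit of detection, with estimated counts of at most 4.02 in NaCl and 8.01 to 8.04 in H89 tumors.

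Downstream of the receptor, 6 of 20 tested B cell receptor signaling genes were higher and 0 lower, with a median log2 fold change of 0.24, and without H89 tumor 3 the count was 3. Malt1 (0.66, standard error 0.16, adjusted p = 0.0723) and Pik3cd (0.43, 0.13, adjusted p = 0.0995) had the smallest p values. Both proteins also act in T cells or myeloid cells. In CPM, the 20 genes sat at a median of 21.0, well above most members.

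The plasma cell program held differences in both directions. Of 21 tested genes, 2 were higher and 4 lower, with a median log2 fold change of 0.13, and without H89 tumor 3 the counts were 0 and 4. Slamf7, a surface receptor of plasma cells, NK cells and macrophages, was higher (1.50, standard error 0.48, adjusted p = 0.116), but at a NaCl mean of 0.367 CPM it passed the filter only through the H89 tumors, and of the other 20 genes 1 was higher. Xbp1, the transcription factor that builds the secretory apparatus of plasma cells, was 146 ± 11.4 CPM in NaCl and 120 ± 7.40 CPM in H89 tumors (SD, n = 3 each), with a log2 fold change of -0.35 (adjusted p = 0.0800), and Herpud1, which acts in endoplasmic reticulum-associated degradation, had -0.40 (adjusted p = 0.0827). Most genes of this list are expressed by secretory cells in general, and Xbp1 stood at over 100 CPM where Jchain stood at most at 4.07. With scaling by the library total, 3 were higher and 2 lower.

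Factors for B cell survival and homing gave 3 higher and 1 lower of 15 tested, with a median log2 fold change of 0.42. Cxcl13, the chemokine that draws B cells into follicles, was 0, 0.333 and 0.394 CPM in the NaCl tumors and 0.841, 1.60 and 1.68 CPM in the H89 tumors (log2 fold change 2.43, standard error 0.70, adjusted p = 0.0964). It was 1 of 4 genes of this list that passed the filter only through the H89 tumors, and of the other 11 genes 2 were higher, with a median of 0.36. Cxcl12, which retains plasma cells in their niche, was 7.44 ± 0.363 CPM in NaCl and 12.8 ± 2.65 CPM in H89 tumors (adjusted p = 0.0839), and Tnfsf13b, the survival factor BAFF, had a log2 fold change of 1.11 (adjusted p = 0.154) that was 0.64 without H89 tumor 3. Both Cxcl13 and Cxcl12 were higher in each H89 tumor than in any NaCl tumor, which held for 20.5% of all tested genes in CPM. The lymphoid tissue chemokines Ccl19 and Ccl21a were listed at 0 in all 6 tumors.

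Genes of the germinal center and class switching gave 1 higher and 1 lower of 9 tested, with a median log2 fold change of 0.31, and without H89 tumor 3 both counts were 0. Bach2 (0.62, adjusted p = 0.156), Il21r (0.40, or 0.25 without H89 tumor 3, adjusted p = 0.253) and Il4ra (-0.20, adjusted p = 0.200) had the smallest p values. Receptors that bind immunoglobulin gave 2 higher and 1 lower of 8 tested, with a median of 0.25, and again 0 of either without H89 tumor 3. Trim21, the cytosolic antibody receptor, had 0.75 (adjusted p = 0.139), Fcgr1, the high-affinity IgG receptor, 0.57 (adjusted p = 0.171) and Fcgrt, the neonatal Fc receptor, -0.36 (adjusted p = 0.183).

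**Figure D5:**
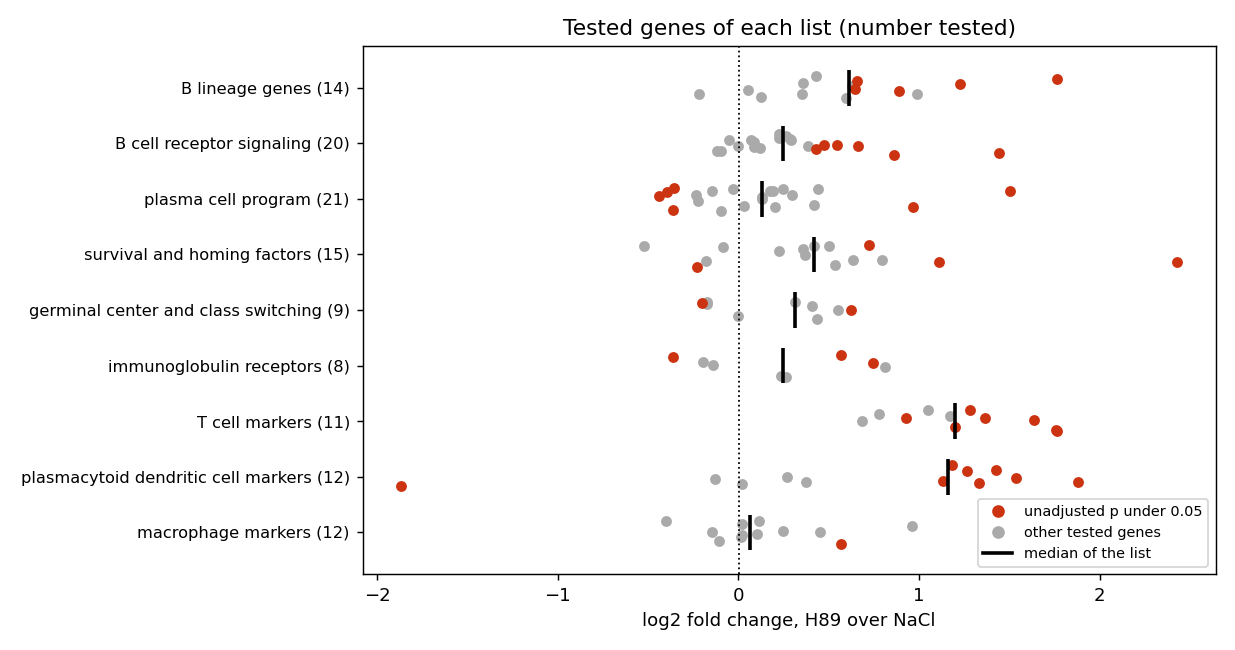
Log2 fold change of H89 over NaCl for each tested gene of 9 lists, in red where the unadjusted p was under 0.05, with a black bar at the list's median and a dotted line at the median of all tested genes. B lineage, T cell and plasmacytoid dendritic cell genes have medians of 0.61, 1.20 and 1.16, and macrophage markers 0.06.

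Markers of other leukocytes were counted in the same way. Of 11 T cell markers tested, 7 were higher and 0 lower at the unadjusted threshold, with a median log2 fold change of 1.20 (4 higher without H89 tumor 3), and their summed level was 18.4 to 40.3 CPM in NaCl and 37.9 to 94.96 CPM in H89 tumors. Cd8a (1.76, adjusted p = 0.104), Cd3g (1.64, adjusted p = 0.101) and Cd247 (0.93, adjusted p = 0.113) had the smallest p values. Without H89 tumor 3 the log2 fold change was 1.03 for Cd8a and 1.08 for Cd3g. Of 12 plasmacytoid dendritic cell markers tested, 7 were higher, among them Siglech (1.13, adjusted p = 0.0722) and Ccr9 (1.43, adjusted p = 0.0800). Of these 7 genes, 1 passed the filter only through the H89 tumors. Over all 14 listed genes the summed level was 258 to 276 CPM in NaCl and 263 to 354 CPM in H89 tumors. Tcf4, which was not among the higher genes, made up much of this sum, with means of 127 CPM in NaCl and 123 CPM in H89 tumors. Cox6a2, a subunit of cytochrome c oxidase on the same list, was the only gene of all the lists to pass the adjusted threshold, and it fell by 1.87 on the log2 scale (standard error 0.23, edgeR Benjamini-Hochberg adjusted p = 0.0407). When single tumors were left out, this p was 0.0663 to 0.137 in edgeR's test. Plasmacytoid dendritic cells can hold mu chain transcripts. The part of these cells or of T cells in the members' values was not tested.

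Macrophage markers summed to 2213 to 3549 CPM in NaCl and 2721 to 3617 CPM in H89 tumors, with 1 of 12 higher and 0 without H89 tumor 3. The 3 genes with the smallest p values were Fcgr1, Cd14 with a log2 fold change of -0.40 and Itgam with 0.96, which was 0.22 without that tumor. Lymph node stroma markers summed to 32.3 to 46.8 CPM in NaCl and 21.6 to 34.0 CPM in H89 tumors. Of the 8 genes, Ccl21a, Ccl19 and Glycam1 were at 0 in all tumors, and the 2 tested were Cxcl13, with the values above, and Pdpn with -0.62. Red blood cell markers summed to 64.5 to 104 CPM in NaCl and 21.9 to 235 CPM in H89 tumors, highest in H89 tumor 3, where Hba-a2 was 126 CPM against 11.5 to 57.5 CPM elsewhere. None of 4 was past the threshold (Hba-a2 0.08, Hbb-bt 0.08, Alas2 0.30), and the sign of all 3 changed without that tumor. Whether blood in the tumor moved the antibody reads was not tested.

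Genes with a pattern like that of Igkc or Ighm were sought among the tested genes by the root mean square difference of centred log2(CPM + 0.5) profiles over the 6 tumors, as a description. The nearest to Igkc were Jchain at 0.57, H2-DMb1 at 0.70, Ikzf3 at 0.70, Ighg3 at 0.71 and F830016B08Rik at 0.72, out of 13117 genes. Ikzf3 encodes Aiolos, a transcription factor of B and T cells, and H2-DMb1 a chain of the peptide editor of MHC class II. Nearest to Ighm were C6 at 0.32, Clec4a3 at 0.35, Tnfrsf14 at 0.35, Aspn at 0.38 and Cxcl13 at 0.41. Jchain, Ighg3 and Cxcl13 passed the filter on low values only through the H89 tumors, so their nearness is no support. Ighm itself lay at 1.06 from Igkc, farther than Jchain, while Cd79b and Mzb1 lay nearest to Ighm among the other members, at 0.67 and 0.68. For members with means under 0.5 CPM, such as Mzb1, the added 0.5 flattens the profile. Their distances to Ighm then partly follow the spread of Ighm itself.

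Promoters were read where RefSeq gave one, for Fcmr, Jchain, Cd79a and Pou2af1 (250 bases before to 50 after the gene start, GRCm38.p6). The octamer ATGCAAAT, the element at which the product of Pou2af1 acts, was searched on both strands and was in 0 of these 4 promoters and in 1.74% of 32851 promoters. The shorter TGCAAAT, which is contained in it, was in 1 of the 4, that of Pou2af1, and in 4.02% of all. The letters AGGAAGTG, a form of the ETS motif, were in 1 of the 4, that of Cd79a, and in 4.07% of all. Both promoters are shown with the matched letters in capitals. Their first base lies 231 bases before the RefSeq start of Pou2af1 and 55 bases before that of Cd79a. These RefSeq starts differ from the GENCODE starts given above, and the match of Cd79a lies inside the gene as GENCODE places it.
Pou2af1 promoter (chr9:51213440-51213739, plus strand): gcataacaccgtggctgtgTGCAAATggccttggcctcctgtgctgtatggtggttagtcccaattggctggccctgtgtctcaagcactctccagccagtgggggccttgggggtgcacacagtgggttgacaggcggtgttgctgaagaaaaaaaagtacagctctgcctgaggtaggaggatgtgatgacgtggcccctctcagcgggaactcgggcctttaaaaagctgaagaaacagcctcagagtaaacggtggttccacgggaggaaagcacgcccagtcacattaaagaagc
Cd79a promoter (chr7:24897247-24897546, plus strand): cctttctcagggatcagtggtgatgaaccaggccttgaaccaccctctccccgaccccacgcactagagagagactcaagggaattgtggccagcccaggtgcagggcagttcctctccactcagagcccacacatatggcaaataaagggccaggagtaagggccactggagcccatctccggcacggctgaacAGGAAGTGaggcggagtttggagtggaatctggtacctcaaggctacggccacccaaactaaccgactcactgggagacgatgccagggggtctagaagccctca

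In H89 tumors the mean level was 0.288 CPM for Pou2af1 and 1.02 CPM for Cd79a. A match of letters is a description and says nothing about binding in these tumors.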

How the data were processed

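CT26 tumors of 3 NaCl and 3 H89-treated mice were analysed. The authors extracted total RNA with Trizol and sequenced it on the BGISEQ-500 platform, and the submitters' processing notes name kallisto, DESeq2 and GRCm38, without versions. The deposited table is called TPM but holds estimated counts per gene, since the authors' values summed to 27067349 to 31958793 per tumor. Groups and numbers came from the sample labels. The members and gene lists were chosen with earlier results of these data known.

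Estimated counts were rounded to whole numbers. A filter at a mean of 0.5 CPM left 13118 genes, tested with edgeR 4.0.16 in R 4.3.3 (quasi-likelihood F test, TMM, no covariate beside treatment) and Benjamini-Hochberg adjusted p under 0.05. Members and segments below the filter were fitted with all 18837 detected genes. Standard errors were derived from the F statistic. Alternatives used limma 3.58.1 and DESeq2 1.42.0. Scripts were tested on simulated data. Genes named are the members, the 5 most abundant other immunoglobulin segments, in each list those called plus the 3 with the smallest p, Ptprc, and the 5 nearest to Igkc and to Ighm. Genes such as Igkv4-91 and Pax5 were singled out after their values were seen. Some genes that this rule names are not reported here. The columns of 332 genes are recorded by name, and the other 23225 were read in the same way. Positions, exon lengths and overlaps are those of GENCODE M21 (GRCm38), by symbol. Alignments used Biopython 1.88. Ighg1, Ighg2a, Ighd, Iglc1 and Iglc3 were not among the genes read here. At these depths 3 counts in 1 tumor are 0.0939 to 0.111 CPM. Intervals and floors cover counting error only.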

Additional observations from a re-analysis of the deposited data

How the results depend on the processing

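With 3 tumors per group and few counts, the members' fold changes are imprecise. Genes passing the adjusted threshold numbered 208, between 164 and 311 with another scaling by size factors or library total, the robust option, no filter, a 5 CPM filter or limma with any pseudocount, but 81 with quantile normalization, 1396 with DESeq2, and 0 to 12 with 1 tumor left out. Of the calls 54.3% were higher in H89 tumors, against 79.9% with library totals only, 81.1% to 83.6% in limma with the 3 pseudocounts and 67.9% with quantile normalization. The 1 called list gene became 24 with DESeq2 (20 higher, 4 lower), 2 with no filter, 0 with a 5 CPM filter and 0 with any tumor left out. The 1 called immunoglobulin segment gene became 2 (Igha and Iglc2) with median ratio size factors, DESeq2, the robust option or no filter, 0 with quantile normalization or a 5 CPM filter, and 0 with any tumor left out.

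The median of the members, 1.43, was 0.87, 0.58 and 0.41 in limma with pseudocounts of 0.1, 0.5 and 1, and 0.32 with quantile normalization, scales on which low counts are compressed. It lay between 0.68 and 1.69 with 1 tumor left out. The median per Ptprc lay between -0.68 and -0.17 with 1 tumor left out. Every member except Fcmr kept a log2 fold change above 0 under every alternative.

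Among the red blood cell genes, the log2 fold change reversed for Hbb-bt to -0.33, -0.20 and -0.11 in limma with pseudocounts of 0.1, 0.5 and 1, -0.48 with quantile normalization and -0.34 with the replicate block, and for Hba-a2 to -0.65, -0.64, -0.61, -0.73 and -0.72 in the same order. Alas2 reversed to -0.0023 with a pseudocount of 0.1 and to -0.20 with quantile normalization. With 1 tumor left out, Hbb-bt lay between -1.32 and 0.54, Hba-a2 between -1.84 and 0.55, and Alas2 between -0.93 and 0.69.

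With the replicate number as a block, 0 genes passed the adjusted threshold, including 0 of the lists and 0 of the segment genes, and the median of the members was 1.22. The tumors share only a number: the deviations of same-numbered tumors from their group means correlated at 0.16, 0.06 and -0.03 across genes, and not every tumor correlated best with its own number. The causes of these changes were not tested.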
